A study of Mus musculus with 16 samples.

Results

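The genes described here are 10 markers of cortical interneurons, Gad1, Gad2, Pvalb, Sst, Vip, Npy, Cck, Lamp5, Reln and Calb2. They were taken by gene symbol from a table of raw counts with 54532 entries, and each symbol matched 1 entry. All 10 passed the filter on low counts, with 119 to 9640 counts per gene and library, so none was left out for low values. Their values were followed across 16 RNA-seq libraries of brain tissue of 9-month-old female mice. Each combination of Ch25h genotype (Ch25h+/+ or Ch25h-/-) with tau status (Tau- or Tau+) has 4 libraries. Ch25h encodes the enzyme cholesterol 25-hydroxylase, -/- marks its loss, and Tau+ was taken to mean that the mice carry a transgene for tau. The labels do not name the transgene's promoter, the mutation it may carry or the strain. They do not say whether each library came from its own animal, so p-values measure the spread between these libraries, which may be technical. The labels give frontal cortex as the tissue, while the text of the series names another region, the hippocampus.

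Interneurons are the local inhibitory neurons of the cortex, and they release GABA, which the decarboxylases encoded by Gad1 and Gad2 make from glutamate. Their main classes are told apart by calcium-binding proteins and peptides. Pvalb marks fast-spiking basket and chandelier cells, Sst marks cells that target dendrites, Vip marks cells that inhibit other interneurons, and Lamp5 and Reln mark neurogliaform and other cells of the superficial layers. Npy, Cck and Calb2 each mark subsets that cut across these classes, and Cck is also made by many excitatory cortical neurons.

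The libraries held 15530352 to 25602500 counts. The 95% intervals below come from the edgeR fit of all 16 libraries and include the spread between them. Ch25h had 5 to 30 counts in the 8 Ch25h+/+ libraries and 0 in the 8 Ch25h-/- libraries. Prnp, whose promoter drives some tau transgenes, lay at 708 to 839 CPM (counts scaled to a common library size by TMM) in the 8 Tau- libraries and at 1414 to 1935 in the 8 Tau+ libraries. Markers of cortical excitatory neurons summed to 4622 to 6121 CPM and those of hippocampus to 187 to 343. Markers of striatal projection neurons, which also use Gad1 and Gad2, summed to 195 to 374 CPM. Choroid plexus markers ranged from 16.9 to 2771 CPM. No gene of the 12 marker lists read was at 0 in all libraries. The ribosomal RNA transcript CT010467.1 took 2289 to 5684 CPM on total counts in 7 libraries, all Ch25h-/-, and 111 to 475 in the other 9, which are the 8 Ch25h+/+ libraries and Ch25h-/- Tau+ replicate 1. These are called rRNA-rich and rRNA-poor below. Ch25h loss and this library class therefore coincide in all libraries but 1, and beyond that library they cannot be told apart.

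Per kilobase of exon, the peptide genes Sst, Cck and Npy stood highest among the 10, while the peptide gene Vip stood low. Exon length was the union of all annotated exons of a gene, such as 0.566 kb for Npy, 3.40 kb for Vip and 7.64 kb for Gad1. Other length models, which could change this ranking, were not tried. Averaged over the 16 libraries, Sst lay at 286 ± 44.9 CPM per kb (SD) and Cck at 262 ± 36.1. Sst was above Cck in most libraries, but their ranges overlapped (238 to 415 against 206 to 366). Npy followed at 84.5 ± 16.9 CPM per kb and Lamp5 at 67.9 ± 8.45, with overlapping ranges. Pvalb, at 51.7 ± 11.1, and Gad1, at 48.3 ± 5.05, did not differ beyond their spread. Gad2 lay lower at 25.4 ± 2.57 CPM per kb, with no library reaching the lowest Pvalb or Gad1 value. Vip was at 11.3 ± 1.86, Calb2 at 6.93 ± 1.52 and Reln, the gene with the longest exon model, at 3.13 ± 0.876 CPM per kb. The remaining values are CPM of whole genes and compare libraries, not genes.

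**Figure D1:**
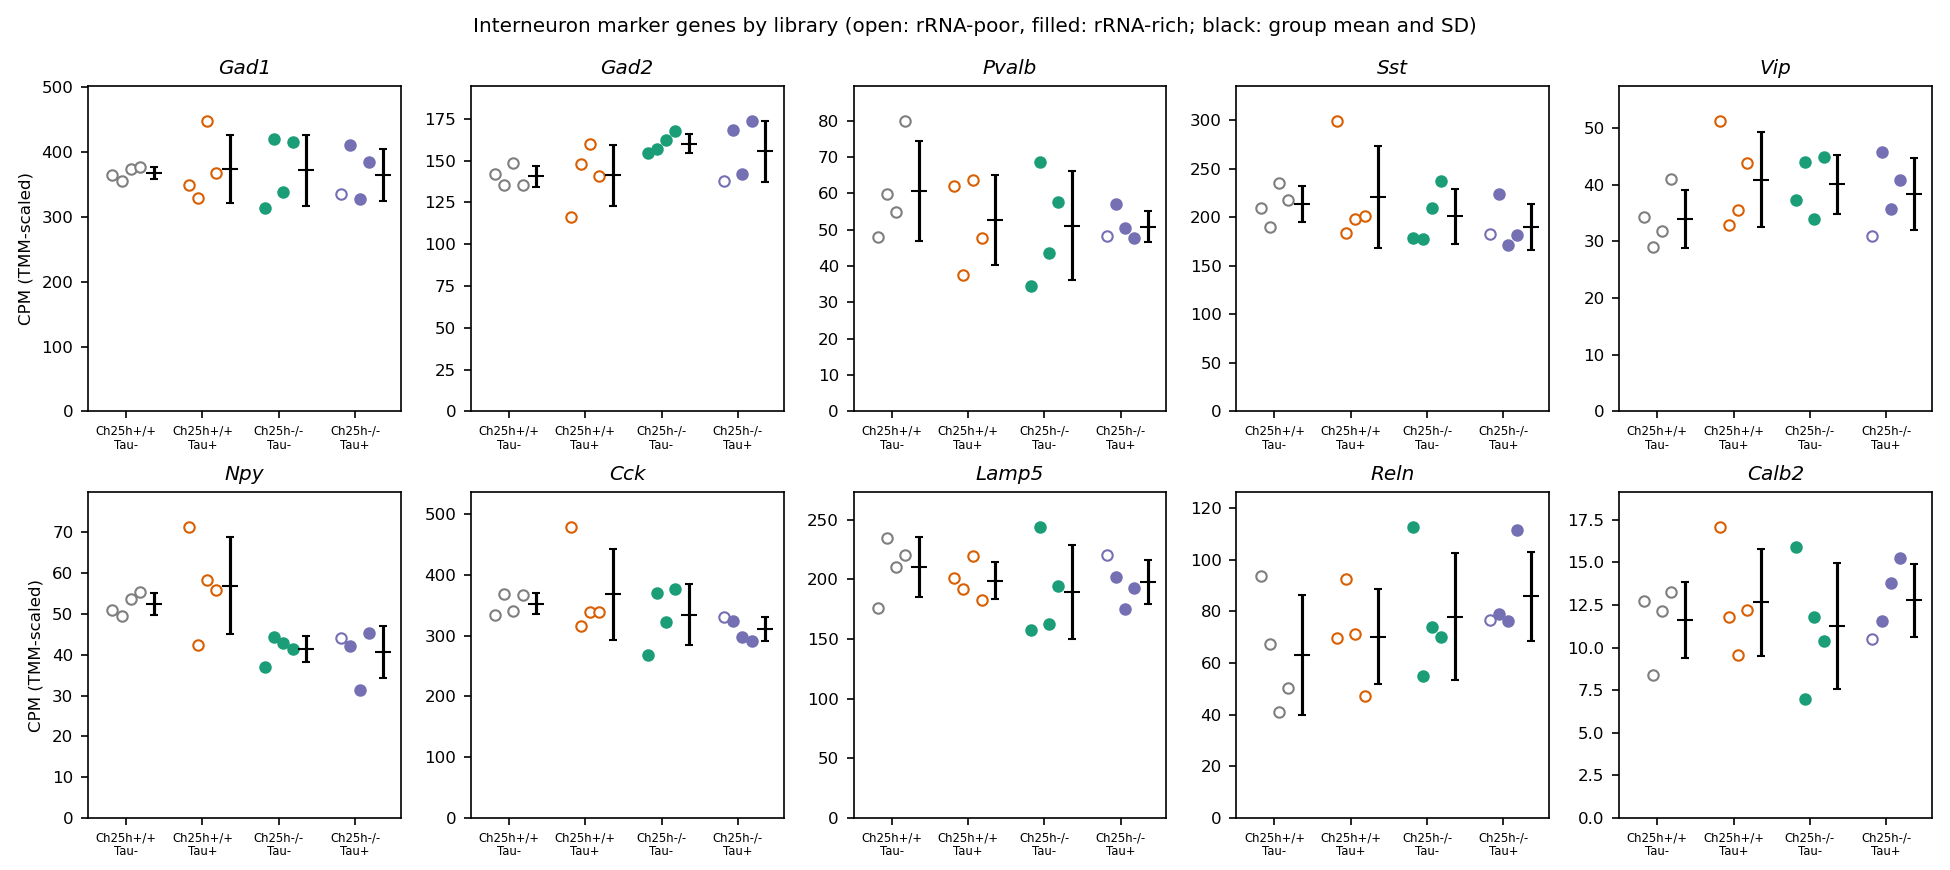
Each panel shows 1 gene, with CPM from 0 on the vertical axis and the 4 groups on the horizontal axis. Points are libraries, open where rRNA-poor and filled where rRNA-rich, and black bars are the group mean and SD (n = 4); the Npy points of Ch25h-/- Tau-, 36.9 to 44.4 CPM, all sit under those of Ch25h+/+ Tau-, 49.4 to 55.4 CPM.

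Npy, Cck, Vip and Sst encode secreted peptides, and for these the stretch before the start site is shown, since some peptide genes are known for cAMP response elements there. Whether such elements had a part in how these genes varied across libraries was not tested. The sequences come from RefSeq (GRCm38.p6), read 5′ to 3′ on the gene's strand, and capitals mark the core TGACG or its reverse complement CGTCA. Each runs from 95 to 26 bases before the RefSeq start, at chr6:49822615-49822684 (+) for Npy, chr9:121495720-121495789 (-) for Cck and chr10:5639123-5639192 (+) for Vip. For Sst, where the GENCODE gene model extends over the window, 30 bases at chr16:23890875-23890904 (-) are shown.
Npy: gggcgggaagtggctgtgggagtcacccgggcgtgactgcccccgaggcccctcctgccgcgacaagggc
Cck: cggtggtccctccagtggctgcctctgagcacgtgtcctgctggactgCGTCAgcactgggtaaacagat
Vip: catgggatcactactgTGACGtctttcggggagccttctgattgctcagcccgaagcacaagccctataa
Sst: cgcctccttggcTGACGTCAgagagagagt
The full palindrome TGACGTCA, in which the core overlaps its own reverse complement, was in the 300-base window (250 before to 50 after the start) of Sst alone among the 9 genes with a RefSeq window. It was in 1.79% of all 32851 such windows. The core on either strand was in the windows of Sst, Vip, Cck and Gad2, against 20.8% of all windows. Npy had no core match, which says only that these letters are not in its window.

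Npy, which encodes neuropeptide Y, a peptide of many Sst cells and of neurogliaform cells, was the member that differed with Ch25h genotype (chromosome 6, 49822710 to 49829507, plus strand, GRCm38). Its CPM were 50.9, 49.4, 53.6 and 55.4 in Ch25h+/+ Tau- and 36.9, 44.4, 42.8 and 41.4 in Ch25h-/- Tau-. In the Tau+ groups they were 71.2, 42.3, 58.3 and 55.8 in Ch25h+/+ and 44.0, 42.2, 31.3 and 45.2 in Ch25h-/-. The Tau- groups did not overlap, and in Tau+ Ch25h+/+ replicate 2 lay inside the Ch25h-/- range. The group means were 52.3 ± 2.67, 41.4 ± 3.25, 56.9 ± 11.8 and 40.7 ± 6.40 CPM (SD, n = 4) in this order.

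With Ch25h loss in Tau+, Npy fell by 0.48 on the log2 scale (SE 0.13, 95% interval -0.76 to -0.21, adjusted p 0.0494, edgeR quasi-likelihood test with Benjamini-Hochberg adjustment over 17736 genes). It was 1 of 10 members called there, beside 3.55% of all genes, or 2.40% called lower. In Tau- the log2 difference was -0.34 (SE 0.13, interval -0.61 to -0.06) and did not pass, with an edgeR adjusted p of 0.152. Averaged over both tau states, Npy fell by 0.41 on the log2 scale (SE 0.09, interval -0.60 to -0.22, edgeR adjusted p 0.00731), which is -24.7% (interval -34.2% to -13.9%). With edgeR it was again the only member called, while limma-voom, run with library quality weights throughout, called Gad2 as well. The edgeR test called 20.3% of all genes, or 10.8% lower, so a call in this comparison is common. In bulk tissue, fewer cells of a type and less RNA per cell cannot be told apart. The 6 microglia markers summed to 324 to 419 CPM in Ch25h+/+ Tau+ and to 253 to 308 in Ch25h-/- Tau+, with no overlap. In Tau- their sums overlapped, at 254 to 272 CPM in Ch25h+/+ and 254 to 284 in Ch25h-/-. The 6 astrocyte markers summed to 2875 to 3168 CPM in Ch25h+/+ Tau- and to 3186 to 3904 in Ch25h-/- Tau-, also with no overlap. In Tau+ their sums overlapped, at 2361 to 4196 CPM in Ch25h+/+ and 3300 to 4058 in Ch25h-/-. The sums of the other marker lists overlapped between the Ch25h genotypes in both tau states. Of all single genes, 10.2% did not overlap with Ch25h loss in Tau+ and 16.2% in Tau-. No gene of either list was at 0 in all libraries, and their part in the Npy difference was not tested.

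The Npy values by library class were 42.3 to 71.2 CPM (median 54.5) in the 8 rRNA-poor Ch25h+/+ libraries and 31.3 to 45.2 (median 42.2) in the 7 rRNA-rich Ch25h-/- libraries. The 1 rRNA-poor Ch25h-/- library had 44.0 CPM, inside the range of both. With a covariate for the class the difference in Tau+ was -0.37 and the mean difference -0.28 on the log2 scale, with edgeR adjusted p of 0.976 and 0.9995. The covariate took the difference in Tau- from -0.34 to -0.18. That fit has no rRNA-rich Ch25h+/+ library, and its value for Ch25h loss rests on the 1 rRNA-poor Ch25h-/- library. Offsets that remove each library's trend with GC content, an alternative chosen after seeing the data, gave -0.38 and -0.32, with adjusted p of 0.162 and 0.0562. The call in Tau+ was also lost in a fit of only the 8 libraries compared (-0.48, adjusted p 0.154) and in 13 of 16 leave-one-out fits, each without 1 library. Those fits ranged from -0.62 to -0.37, with edgeR adjusted p of 0.00885 to 0.144. The 3 that kept the call left out Ch25h+/+ Tau+ replicate 2, Ch25h-/- Tau- replicate 1 or Ch25h-/- Tau+ replicate 1. The mean fall kept its call in all 16 such fits, at -0.48 to -0.35 with adjusted p of 0.00188 to 0.0172.

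**Figure D2:**
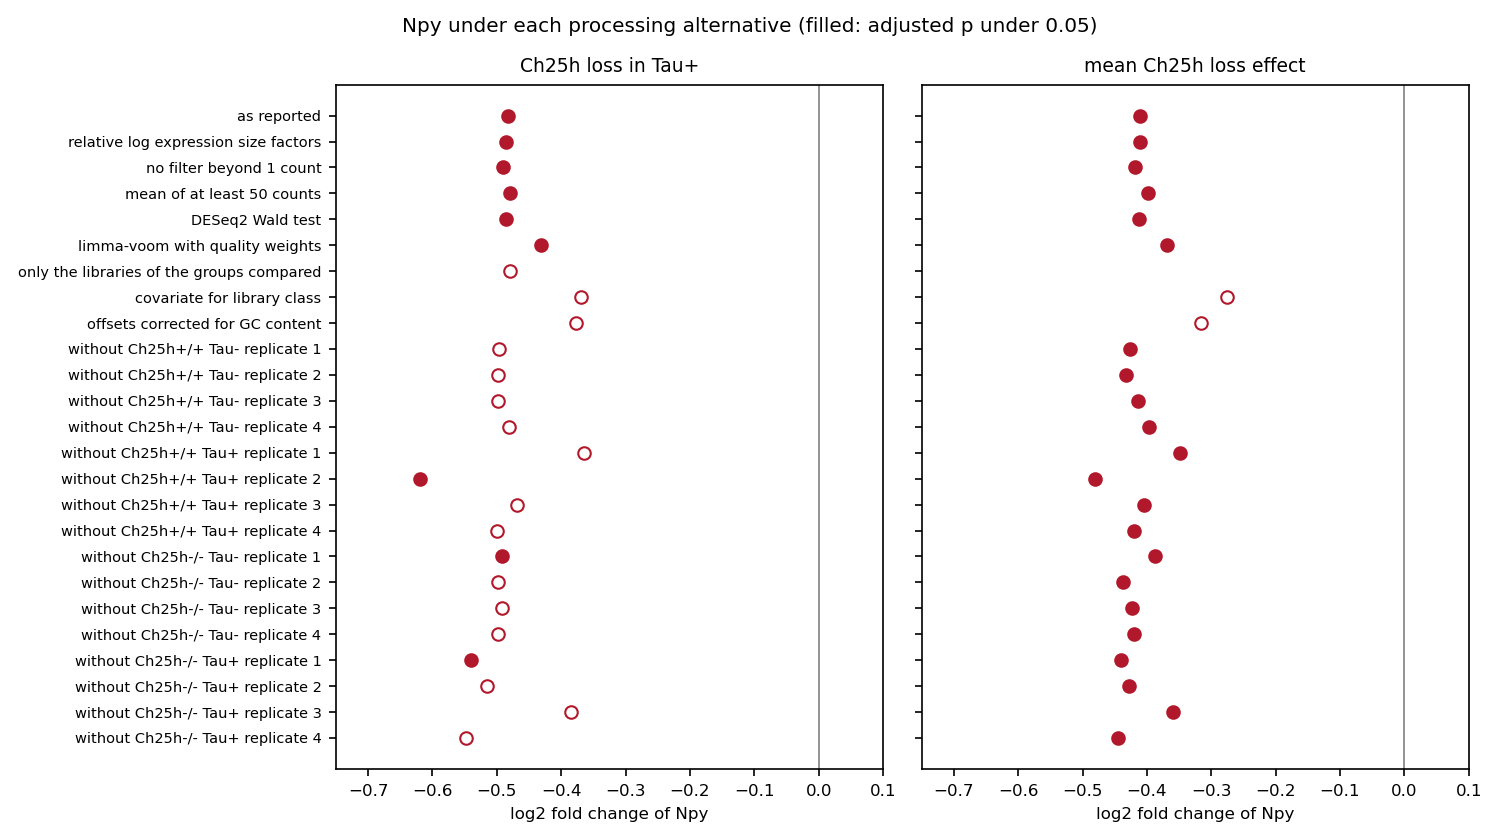
Log2 fold change of Npy (horizontal axis) under each processing alternative (vertical axis), for Ch25h loss in Tau+ on the left and for the mean effect of Ch25h loss on the right. Filled points have an adjusted p under 0.05; all points lie below 0, from -0.62 to -0.37 on the left over the fits that leave out 1 library, and most points on the left are open while only those for library class and GC content are open on the right.

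The 7 rRNA-rich libraries differed from the rest in their trend with GC content, and values for the members are given beside it. Across genes, the Spearman correlation of each gene's log2 CPM, less its mean over the libraries, with GC content was -0.40 to -0.26 in the rRNA-rich libraries and 0.09 to 0.37 in the rRNA-poor ones. Over the 10 members, GC content of the longest transcript ran from 38.7% (Vip) to 56.9% (Cck), and its Spearman correlation with the mean log2 effect of Ch25h loss was -0.70. Over 17598 genes with a known GC content it was -0.56. Both are descriptions over genes that share the same libraries. Npy has 53.7% GC, and among the 1824 genes within 1 percentage point of it the median effect was -0.09, with 5.26% at or below the value of Npy. The part of GC content in the difference of Npy was not tested beyond the corrected offsets above.

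**Figure D3:**
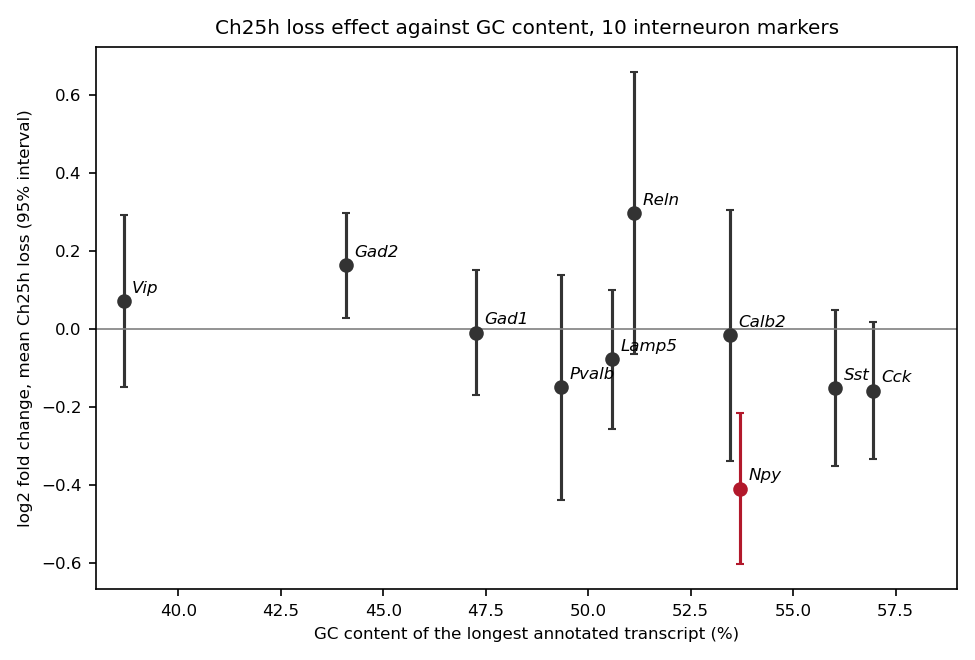
Mean log2 effect of Ch25h loss with its 95% interval (vertical axis) against GC content in percent (horizontal axis), 1 point per gene, with Npy in red. The AT-rich Vip and Gad2 lie above 0 and the GC-rich Sst and Cck below, but the intervals of Vip, Sst and Cck include 0. Reln, at 51.1% GC, lies highest at 0.30. Calb2, at 53.5% GC, lies at -0.02, and Npy, at 53.7% GC and -0.41, lies under all others.

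In the main edgeR fit the GABA-synthesising enzymes did not pass in any comparison, though Gad2 passed in some alternatives given below. Gad2, the decarboxylase that serves synaptic release (chromosome 2, 22622205 to 22693874, plus strand), had 142, 136, 149 and 135 CPM in Ch25h+/+ Tau- and 154, 157, 162 and 168 in Ch25h-/- Tau-. In Tau+ it had 116, 148, 159.8 and 141 CPM in Ch25h+/+ and 138, 168, 142 and 174 in Ch25h-/-. Every Ch25h-/- Tau- library was above every Ch25h+/+ Tau- library, while the Tau+ groups overlapped. Npy and Gad2 were thus the 2 of 10 members whose Tau- groups did not overlap, beside 16.2% of all genes. The log2 difference of Gad2 in Tau- was 0.19 (SE 0.09, interval -0.0021 to 0.38, edgeR adjusted p 0.245). Averaged over tau states it was 0.16 (interval 0.03 to 0.30, edgeR adjusted p 0.0800). This mean difference passed with limma-voom (0.15, adjusted p 0.0496), with a filter at a mean of 50 counts (0.17, adjusted p 0.0484), and without Ch25h+/+ Tau+ replicate 3 (0.19, adjusted p 0.0376) or Ch25h-/- Tau+ replicate 1 (0.18, adjusted p 0.0467). With the covariate for library class it was -0.04, and with GC-corrected offsets 0.04.

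Gad1, the decarboxylase that makes most of the GABA of the cell body (chromosome 2, 70553072 to 70602014, plus strand), varied least between libraries of Ch25h+/+ Tau-. It had 365, 355, 374 and 377 CPM there, and 349.6, 328, 448 and 368 in Ch25h+/+ Tau+. In Ch25h-/- it had 313, 421, 338 and 415 CPM in Tau- and 335, 411, 327 and 385 in Tau+. The 4 groups overlapped, and their means lay between 364 and 373 CPM. The mean log2 effect of Ch25h loss on Gad1 was -0.01 (interval -0.17 to 0.15), and that of tau was -0.0030 (interval -0.16 to 0.16). The ratio of Gad1 to Gad2 in CPM was 2.62 ± 0.118 and 2.66 ± 0.334 in the Ch25h+/+ Tau- and Tau+ groups, and 2.32 ± 0.315 and 2.35 ± 0.110 in the Ch25h-/- groups (SD, n = 4).

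Sst encodes somatostatin (chromosome 16, 23889573 to 23890958, minus strand). Its CPM were 210.0, 190.3, 235 and 218 in Ch25h+/+ Tau-, and 299, 184, 199 and 202 in Ch25h+/+ Tau+. In Ch25h-/- they were 179, 178, 209.7 and 237 in Tau- and 183, 224, 171 and 181 in Tau+. All 4 groups overlapped, and Ch25h+/+ Tau+ replicate 1 stood apart at the top. The log2 difference with Ch25h loss was -0.22 in Tau+ (SE 0.14, interval -0.50 to 0.07, edgeR adjusted p 0.344) and -0.09 in Tau- (interval -0.37 to 0.20).

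Cck encodes cholecystokinin (chromosome 9, 121489824 to 121495694, minus strand). Its CPM were 334, 368, 341 and 367 in Ch25h+/+ Tau-, and 478, 316, 339 and 338 in Ch25h+/+ Tau+. In Ch25h-/- they were 269, 369, 322 and 377 in Tau- and 331, 324, 298 and 291 in Tau+. The same Ch25h+/+ Tau+ library was highest as for Sst, and the groups overlapped. The log2 difference with Ch25h loss in Tau+ was -0.24 (SE 0.12, interval -0.49 to 0.01, edgeR adjusted p 0.227), and averaged over tau states it was -0.16 (interval -0.33 to 0.02, edgeR adjusted p 0.190).

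Vip encodes vasoactive intestinal peptide (chromosome 10, 5639218 to 5647617, plus strand). Its CPM were 34.3, 28.9, 31.9 and 41.0 in Ch25h+/+ Tau- and 51.2, 32.9, 35.6 and 43.8 in Ch25h+/+ Tau+. This gave a tau difference in Ch25h+/+ of 0.26 on the log2 scale (interval -0.05 to 0.57, edgeR adjusted p 0.664), with overlapping groups, and of 0.14 without Ch25h+/+ Tau+ replicate 1. In Ch25h-/- Vip had 37.2, 43.9, 34.0 and 44.95 CPM in Tau- and 31.0, 45.7, 35.7 and 40.9 in Tau+. The tau difference there was -0.07 (interval -0.38 to 0.25). The interaction of -0.33 (interval -0.77 to 0.11, edgeR adjusted p 0.99996) did not pass, so the tau differences of the genotypes were not shown to differ.

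Pvalb encodes parvalbumin, the calcium buffer of fast-spiking cells (chromosome 15, 78191114 to 78206400, minus strand). Its CPM were 48.0, 59.8, 54.8 and 80.0 in Ch25h+/+ Tau-, and 62.0, 37.5, 63.6 and 47.9 in Ch25h+/+ Tau+. In Ch25h-/- they were 34.5, 68.5, 43.7 and 57.6 in Tau- and 48.2, 57.0, 50.3 and 47.8 in Tau+. The groups overlapped, and the narrowest was Ch25h-/- Tau+. The tau difference in Ch25h+/+ was -0.20 on the log2 scale (SE 0.19, interval -0.61 to 0.20, edgeR adjusted p 0.891). Leaving out 1 library moved it to between -0.31 and -0.04.

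Lamp5, a membrane protein gene of neurogliaform cells (chromosome 2, 136052239 to 136069917, plus strand), ranged from 158 to 244 CPM. Its group means were 210.2 ± 24.96 CPM in Tau- and 199 ± 15.6 in Tau+ with Ch25h, and 189.6 ± 39.6 in Tau- and 198 ± 18.7 in Tau+ without it (SD, n = 4). Both the lowest and the highest library were in Ch25h-/- Tau-, so the spread within that group held that of all others.

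Reln encodes reelin, a secreted glycoprotein that guides layering in development and acts at synapses in the adult (chromosome 5, 21884454 to 22344702, minus strand). Its CPM were 93.7, 67.5, 41.0 and 50.2 in Ch25h+/+ Tau- and 69.7, 92.5, 71.4 and 47.3 in Ch25h+/+ Tau+. In Ch25h-/- they were 113, 55.1, 74.0 and 70.3 in Tau- and 76.8, 78.9, 76.2 and 112 in Tau+. Reln spread most among the 10, with a highest library 2.74-fold above its lowest, and all groups overlapped. The mean log2 effect of Ch25h loss was 0.30 (SE 0.17, interval -0.07 to 0.66, edgeR adjusted p 0.234).

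Calb2 encodes calretinin, a calcium-binding protein of many Vip cells (chromosome 8, 110137502 to 110168210, minus strand). It was the member with the fewest counts, 119 to 281 per library, and ranged from 7.0 to 17.1 CPM. The group means lay between 11.3 and 12.8 CPM, closer together than the libraries of any group.

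None of the 10 members passed for the tau effect in Ch25h+/+, where 1.56% of all genes did. With edgeR, DESeq2 and limma-voom alike the count was 0, also at an unadjusted p under 0.05, beside 9.38% of all genes with edgeR. The edgeR adjusted p ran from 0.664 to 0.996 and the log2 differences from -0.20 (Pvalb) to 0.26 (Vip), with 8 of 10 higher in Tau+ and a median of 0.05 against -0.01 over all genes. That count rests in part on Ch25h+/+ Tau+ replicate 1. Without this library Sst (-0.13), Cck (-0.08) and Calb2 (-0.05) were lower in Tau+, and Npy was at 0.0018. No member's groups failed to overlap, beside 5.86% of all genes. The 95% intervals of the 10 members spanned -0.61 (Pvalb) to 0.67 (Reln).

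In Ch25h-/-, the tau effect also called 0 of 10 members with edgeR, DESeq2 and limma-voom, beside 0.0395% of all genes. At an unadjusted p under 0.05 the count was 0 as well, beside 3.68%. The log2 differences were -0.10 (Cck) to 0.18 (Calb2), with a median of -0.03 and 3 of 10 higher in Tau+. No member's groups failed to overlap, beside 2.14% of all genes. Averaged over genotypes, the tau effect called 0 members with each of the 3 tools, beside 0.857% of all genes, and 0 at an unadjusted p under 0.05, beside 9.85%. The log2 differences ran from -0.11 (Pvalb) to 0.15 (Calb2 and Reln).

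With Ch25h loss in Tau-, 0 of 10 members passed with edgeR, DESeq2 or limma-voom, beside 1.03% of all genes. At an unadjusted p under 0.05 there were 1 with edgeR, 2 with DESeq2 and 3 with limma-voom, beside 20.9% of all genes with edgeR. The median log2 difference of the members was -0.06 in Tau- and -0.04 in Tau+, against 0.01 and 0.00 over all genes. In Tau+ no member's groups failed to overlap, beside 10.2% of all genes. The interaction of Ch25h loss with tau called 0 members with each of the 3 tools, beside 0.0338% of all genes, and 0 at an unadjusted p under 0.05, beside 4.13%. Its log2 values ran from -0.33 (Vip) to 0.19 (Pvalb), with -0.14 for Npy (interval -0.53 to 0.24). The difference of Npy was therefore not shown to depend on tau status. The Ch25h and tau comparisons share groups, so their values are not independent of each other.

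**Figure D4:**
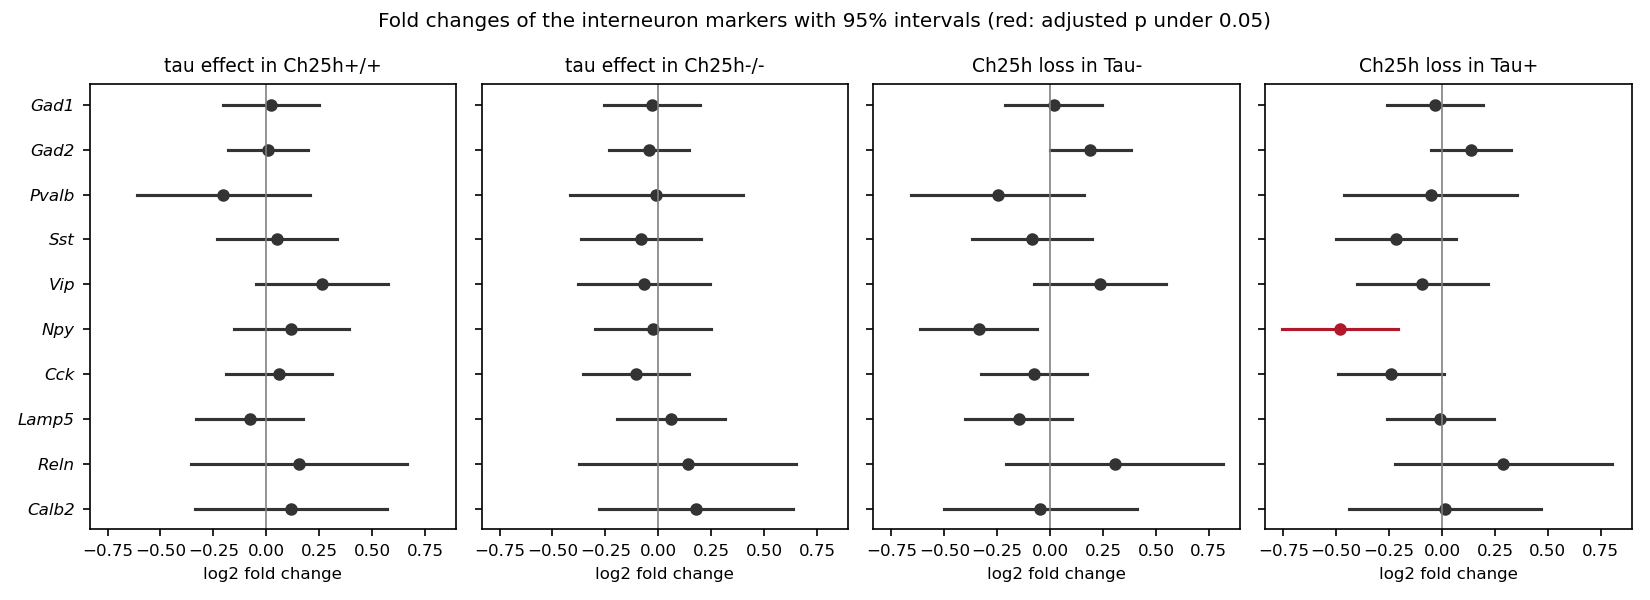
Log2 fold changes of the 10 genes (horizontal axis, with 95% intervals) for the tau effect in each Ch25h genotype and Ch25h loss in each tau status, 1 panel each. Red marks an adjusted p under 0.05, held by Npy alone at -0.48 for Ch25h loss in Tau+; the interval of Npy in Tau-, -0.61 to -0.06, also lies below 0, and the widest intervals belong to Reln.

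Set against the mean of Gad1 and Gad2 in the same library, which removes the scaling between libraries, the other 8 members gave 32 comparisons of 4 against 4 libraries, each with an exact permutation test (two-sided). The smallest p these allow is 0.0286, so with the Benjamini-Hochberg adjustment over 32 a test could pass only if most did. None passed (smallest adjusted p 0.457), and this count of 0 says little. The Npy ratio in Tau- reached that smallest exact p, with a log2 difference of -0.43 with Ch25h loss. The Cck ratio in Tau- reached it as well, at -0.18. Gad2, which is in the denominator, differed by 0.19 in the other direction there, and without a denominator the log2 differences in Tau- were -0.34 for Npy and -0.08 for Cck. In Tau+ the Npy ratio differed by -0.52 (exact permutation p 0.0571, adjusted 0.610).

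Among themselves, the members varied together in part. Of the 45 pairs, 7 had a Pearson correlation of log2(CPM + 0.5) over 16 libraries that passed Benjamini-Hochberg adjustment (permutation test, 100000 resamples, two-sided), and 5 of these 7 also passed on deviations from the group means. By Spearman's rho 3 pairs passed, namely Pvalb with Lamp5, Pvalb with Cck, and Cck with Reln. The last is not among the 7, with rho = -0.75 (permutation test, adjusted p 0.0168) and r = -0.50 (permutation test, adjusted p 0.156). Pvalb and Lamp5 had r = 0.75 (permutation p 0.000840, adjusted 0.0378) and Spearman's rho of 0.77 (permutation p 0.000750, adjusted 0.0168). Their r was 0.67 without the 2 libraries farthest from the median of Pvalb, 0.58 in the 9 rRNA-poor and 0.91 in the 7 rRNA-rich libraries. Pvalb and Cck had r = 0.68 (permutation p 0.00482, adjusted 0.0406) and rho = 0.80 (permutation p 0.000280, adjusted 0.0126), with r = 0.59 without the 2 farthest libraries, 0.53 in rRNA-poor and 0.84 in rRNA-rich libraries. Lamp5 and Calb2 ran opposite ways, with r = -0.65 (permutation p 0.00631, adjusted 0.0406) and rho = -0.60 (permutation p 0.0148, adjusted 0.0953), and with -0.43 without the 2 farthest libraries, -0.52 in rRNA-poor and -0.80 in rRNA-rich libraries.

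The peptide genes Sst, Npy and Cck also varied together, less so without 1 library. Both pairs with Npy did not pass on deviations from the group means, at r = 0.65 with Cck (permutation test, adjusted p 0.0577) and r = 0.63 with Sst (adjusted p 0.0581). Sst and Cck had r = 0.75 (permutation p 0.00178, adjusted 0.0400) but rho = 0.56 (permutation p 0.0248, adjusted 0.140). Their r was 0.39 without the 2 farthest libraries, 0.85 in the rRNA-poor and 0.54 in the rRNA-rich libraries, and 0.50 without Ch25h+/+ Tau+ replicate 1. The correlation of Sst and Cck thus rests in part on that library. For Npy and Cck, r was 0.71 (permutation p 0.00307, adjusted 0.0406) and rho 0.54 (permutation p 0.0323, adjusted 0.144), and r was 0.47 without the 2 farthest libraries and 0.53 without Ch25h+/+ Tau+ replicate 1. Within library classes it was 0.80 in rRNA-poor and 0.43 in rRNA-rich libraries. For Sst and Npy, r was 0.66 (permutation p 0.00610, adjusted 0.0406) and rho 0.42 (permutation p 0.109, adjusted 0.259), with 0.59 without the 2 farthest libraries, 0.45 without Ch25h+/+ Tau+ replicate 1, 0.85 in rRNA-poor and 0.39 in rRNA-rich libraries. The last of the 7 pairs was Gad1 and Pvalb, at r = 0.66 (permutation p 0.00476, adjusted 0.0406) and rho = 0.62 (permutation p 0.0114, adjusted 0.0889), with 0.55 without the 2 farthest, 0.54 in rRNA-poor and 0.86 in rRNA-rich libraries.

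Ch25h+/+ Tau+ replicate 1 was the highest library for 5 members, Sst, Vip, Npy, Cck and Calb2, and the lowest for Gad2. Ch25h-/- Tau- replicate 1 was the lowest for Gad1, Pvalb, Cck and Lamp5 and the highest for Reln. That library also had 93.7 CPM of Pomc, against 0.362 to 22.7 in the others, and the hypothalamus markers, among them Pomc, summed to 103 CPM there and to at most 25.8 in the others. Prl and Gh, pituitary hormone genes chosen after their values were seen, stood at 518 and 118 CPM against at most 24.2 and 8.71. Whether tissue outside the cortex had a part in the member values of this library was not tested. Without it, the mean difference of Npy with Ch25h loss was -0.39 (edgeR adjusted p 0.0152).

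**Figure D5:**
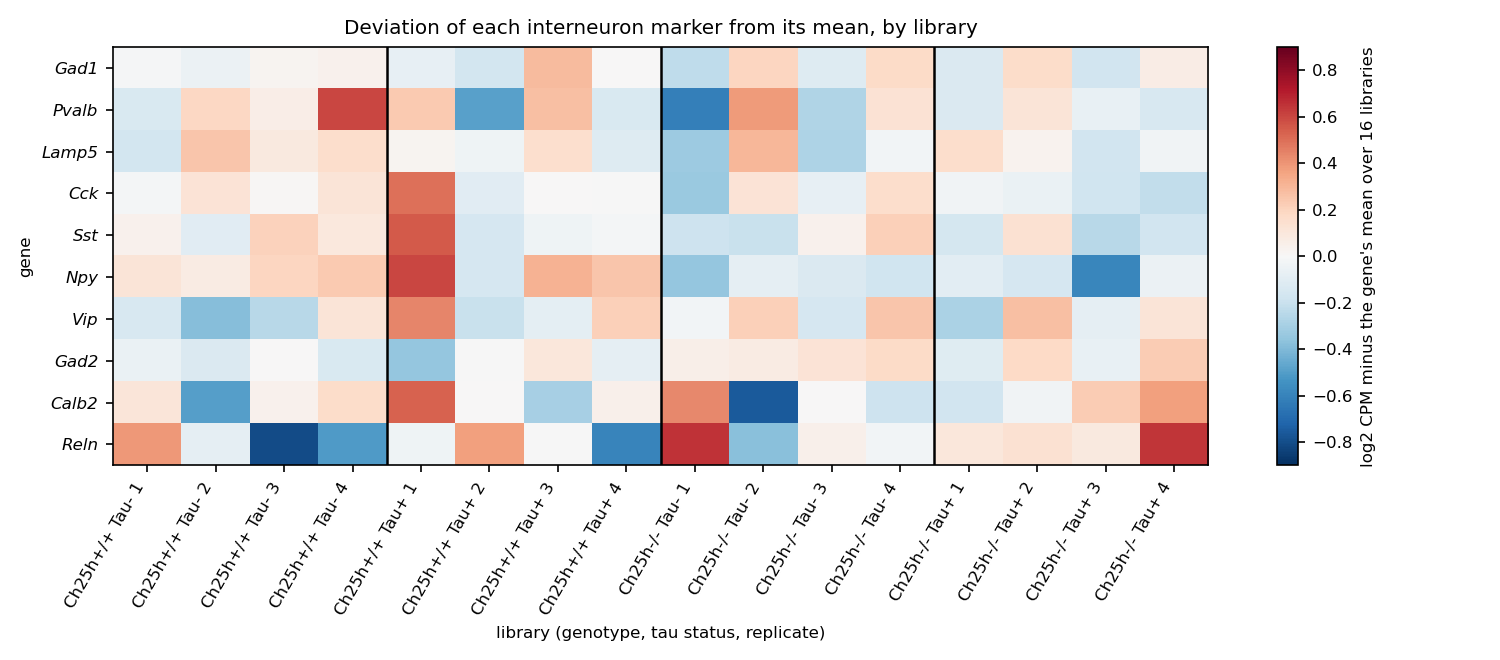
Colour gives log2 CPM minus the gene's mean over the 16 libraries, with the 10 genes as rows and the libraries as columns, black lines separating the groups. Ch25h+/+ Tau+ replicate 1 is the reddest column for Sst, Vip, Npy, Cck and Calb2, and Pvalb and Lamp5 share the blue of Ch25h-/- Tau- replicate 1 and the red of replicate 2.

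Genes whose levels ran most like a member were named by the highest Pearson r over the 16 libraries, among the 11099 genes whose mean log2 CPM was 3 or more. For Npy these were R3hcc1 (r = 0.92), Keap1 (0.91) and Ckb (0.91). For Gad2 they were Tmem184c (0.94), Gpm6b (0.93) and Ulk2 (0.93), and for Cck Bend5 (0.94), Zbtb45 (0.91) and BC029722 (0.91). For Pvalb they were Wnt10a, Olfm2 and Kcnab3 (0.87, 0.87 and 0.86). The best match of each remaining member was Vti1a for Gad1 (0.87), Gmpr for Sst (0.89), Cwc27 for Vip (0.88), Rassf3 for Lamp5 (0.88), Rnf217 for Reln (0.84) and Mapk3 for Calb2 (0.84). These are the extremes of many correlations over libraries that share class and depth, and are a description.

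Genes around the members were read from lists of the same biology. Their changes are given on the log2 scale. Of 12 genes that load, take up, transport or break down GABA or its precursors, 1 was called for the mean effect of Ch25h loss, beside 9.55% of all genes called higher and 10.8% called lower. It was Slc32a1, the vesicular GABA transporter, which fell by 0.28 (edgeR adjusted p 0.0106) from 113 ± 6.90 and 109 ± 9.22 CPM in Ch25h+/+ Tau- and Tau+ to 95.1 ± 12.6 and 87.6 ± 9.92 in Ch25h-/- (SD, n = 4). Slc38a5, an amino acid transporter that carries glutamine, rose by 0.64 in the mean tau effect (edgeR adjusted p 0.0292), the 1 gene of the 12 called there beside 0.857% of all genes. Its level was low, at 1.39 to 3.57 CPM over all libraries. With the library class as a covariate it differed by 0.63 (edgeR adjusted p 0.0574), and with GC-corrected offsets it was still called (0.61, adjusted p 0.0385).

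Of 20 transcription factors of interneuron development, 1 was higher and 3 were lower with Ch25h loss on average, or 4 of 20 beside 20.3% of all genes, a share near the background. Etv1 rose by 0.27 (edgeR adjusted p 0.0151) and also passed in Tau+ alone (0.39, adjusted p 0.0447). Sp9 fell by 0.48 (adjusted p 0.00899). Of 35 other subtype markers, 3 were called higher and 5 lower, also near the 20.3% of all genes. Cplx3, a complexin found in Lamp5 cells and in subplate neurons, fell by 0.48 on average (edgeR adjusted p 0.00298) and by 0.60 in Tau+ (adjusted p 0.0161), from 19.8 ± 1.68 and 21.7 ± 1.49 CPM in Ch25h+/+ to 15.4 ± 2.79 and 14.3 ± 1.92 in Ch25h-/- (SD, n = 4). Cxcl14 fell by 0.22 and Pthlh by 0.42.

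Receptor, matrix and peptide processing genes were called in both directions for the mean effect of Ch25h loss, where 9.55% of all genes were called higher and 10.8% lower. Of 13 neuropeptide receptors, 11 were tested and 1 was called: Npy1r, the Y1 receptor of neuropeptide Y, rose by 0.18 on average (edgeR adjusted p 0.0316). Of 9 reelin pathway genes, Vldlr, a reelin receptor, rose by 0.27 and Src fell by 0.21. Of 15 perineuronal net genes, 14 were tested, with 2 called higher, among them Has3 by 0.58 and Tnr by 0.45, and 2 lower, among them Bcan by 0.22. Of 14 genes for peptide processing and dense-core vesicles, 1 was called higher and 5 lower on average, beside the same 9.55% and 10.8%. Vgf, a secreted neuropeptide precursor, fell by 0.52 (edgeR adjusted p 0.00150), from 584 ± 36.3 and 568 ± 70.05 CPM in Ch25h+/+ to 377 ± 29.1 and 426 ± 84.0 in Ch25h-/- (SD, n = 4). Pcsk1n, an inhibitor of the prohormone convertase, fell by 0.48, and Chga, a granin, by 0.39. In Tau+ alone 1 gene of this list was called higher and 2 lower, beside 3.55% of all genes. Pcsk1, the convertase that cleaves prohormones, rose by 0.63 (edgeR adjusted p 0.0125), Chga fell by 0.45 (adjusted p 0.0252) and Pcsk1n fell by 0.47 (adjusted p 0.0383). In Tau- alone 1 gene was called, beside 1.03% of all genes: Vgf fell by 0.63 (edgeR adjusted p 0.0265).

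With library class as a covariate, none of these named genes was called for Ch25h loss, with edgeR adjusted p of 0.976 or more. The mean differences of Pthlh (-0.49) and Has3 (0.68) were then as large as before, while those of Src (0.01) and Bcan (-0.01) were near 0. Pthlh and Has3 are low, at 1.94 to 3.75 and 2.03 to 5.97 CPM over all libraries. Those of Vgf (-0.10), Sp9 (-0.13), Slc32a1 (-0.11) and Etv1 (0.06) were also much smaller than without the covariate, as was the difference of Vgf in Tau- (-0.14). Smaller to a lesser degree were Cxcl14 (-0.08), Vldlr (0.10), Tnr (0.27), Chga (-0.24), Cplx3 (-0.31), Pcsk1n (-0.31) and Npy1r (0.14), and Pcsk1 in Tau+ (0.36). With GC-corrected offsets, Sp9 (-0.42, adjusted p 0.0438), Cplx3 (-0.42, adjusted p 0.0180), Has3 (0.56, adjusted p 0.0344), Vgf (-0.23, adjusted p 0.0419) and Pcsk1n (-0.31, adjusted p 0.0288) were still called for the mean effect, and Cplx3 also in Tau+ (-0.52, adjusted p 0.0497). The other named genes were not called. Among them the mean difference was -0.37 for Pthlh and 0.40 for Tnr, close to the uncorrected values, but 0.03 for Npy1r, -0.03 for Slc32a1, 0.02 for Bcan and -0.0015 for Src. It was -0.09 for Cxcl14, 0.06 for Etv1, 0.14 for Vldlr and -0.19 for Chga. Of the 115 genes tested from these 7 lists, the tau effect in Ch25h+/+ called 0 with edgeR, 2 with DESeq2 and 3 with limma-voom, beside 1.56% of all genes with edgeR. At an unadjusted p under 0.05 there were 8 with edgeR, beside 9.38%. The tau effect in Ch25h-/- called 0 with each of these tools, with 6 at an unadjusted p under 0.05 in edgeR, beside 3.68% of all genes. The interaction also called 0 with each, with 3 at an unadjusted p under 0.05 in edgeR, beside 4.13% of all genes.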

How the data were processed

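RNA was measured in 16 libraries from mouse brain tissue. The deposited table gives raw counts per gene symbol, with no normalization. STAR 2.7 and the builds GRCm38 and mm10 are named, with no role, per the submitters' processing notes. The counting program and the use of strand are not given in the sources used here, so reads of overlapping or antisense genes cannot be told apart. Groups come from the genotype labels.

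Genes were filtered with filterByExpr and tested in R 4.3.3 with the quasi-likelihood F test of edgeR 4.0.16 (TMM, two-sided), in 1 fit of 16 libraries, with Benjamini-Hochberg adjustment over 17736 genes at 0.05. CPM use TMM-scaled library sizes. DESeq2 1.42.0, limma-voom 3.58.1 with library quality weights, relative log expression size factors, other filters, fewer libraries and a library class covariate were alternatives. The edgeR test was run on simulated counts for the tau effect in Ch25h+/+, with the outcome not reported here. Positions and GC content are from GENCODE M21 (GRCm38). Up to 3 called genes per list and comparison, by smallest p, are named, except 1 that is not reported here. The members and lists were chosen with earlier results of these data known.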

Additional observations from a re-analysis of the deposited data

Results flagged for a closer look

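Of the 40 combinations of a member and a group of 4 libraries, 3 held a library far from the other 3 of its group, and chance gives about 1 in 20 such groups. Sst stood at 299 CPM in Ch25h+/+ Tau+ replicate 1, against 184 to 202 in the other libraries of that group. Cck stood at 478 CPM in the same library, against 316 to 339. Reln stood at 112 CPM in Ch25h-/- Tau+ replicate 4, against 76.2 to 78.9.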

How the results depend on the processing

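Over 70 member values and 1650 recomputed ones, 1485 kept their direction and side of the threshold. In 142 the sign changed with no call in either fit, 18 calls were lost, 5 were gained, and 0 called values changed sign. With Ch25h loss in Tau+, 1 member was called, against 0 when just the 8 libraries compared were fitted, with library class as a covariate or with GC-corrected offsets. Leaving out 1 library gave 0 to 1. With Ch25h loss in Tau-, 0 members were called, and 1, Npy (-0.34, edgeR adjusted p 0.0246), when just the 8 libraries compared were fitted. For the mean effect of Ch25h loss, 1 member was called, 2 with a mean of at least 50 counts or with limma-voom, 0 with library class or GC offsets, and 1 to 2 without 1 library. The causes were not tested. The tau comparisons and the interaction called 0 members in every alternative. Calls over all genes also moved: for Ch25h loss from 182 to between 0 (library class) and 1388 (limma-voom) in Tau-, from 629 to between 10 and 1883 in Tau+, and from 3603 to between 0 and 4557 on average. For tau they moved from 277 to between 203 and 498 in Ch25h+/+, from 7 to between 2 and 28 in Ch25h-/- and from 152 to between 117 and 319 on average, and for the interaction from 6 to between 3 and 57. Leaving out 1 library gave 3 to 1306, 108 to 1691, 2436 to 4226, 160 to 299, 6 to 13, 107 to 233 and 0 to 22 in the same order. The ratios to Gad1 and Gad2 gave 0 passing tests in every setting, which the size of the design nearly fixes and which shows no stability. Of the member pairs, 5 in place of 7 correlated pairs passed after centring on group means, and 3 pairs passed by Spearman's rho. No paired analysis was possible because replicates were numbered by accession order and the labels tie no libraries of different groups together. Depth limits Calb2 most, at 119 to 281 counts per library.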
